A study of Homo sapiens with 12 samples.

Results

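The mitotic kinesins described here are KIF2C, KIF4A, KIF11, KIF14, KIF15, KIF18A, KIF20A, KIF20B, KIF22 and KIF23. These 10 genes were chosen by name, with earlier results of these data known, from the 57820 genes of the deposited tables. They were read in 12 libraries, 2 for each of 6 groups, of T47D-MTVL cells, which derive from the luminal, hormone-responsive breast cancer line T47D and carry an MMTV-driven luciferase reporter. The poly(A) groups were cells given an siRNA to PADI2 (siPADI2) or a control siRNA (siCtrl), and cells labelled as expressing RNA polymerase II in its R1810A form (R1810A) or wild-type form (WT). RNA bound to chromatin was taken after siPADI2 and after siCtrl. PADI2, a peptidylarginine deiminase, converts arginine in proteins to citrulline, and R1810 is an arginine of the polymerase's C-terminal domain, so the design sets loss of the enzyme beside loss of that residue. The siRNAs were delivered with Lipofectamine, and the polymerases were expressed from transfected constructs. Both polymerases were HA-tagged and resistant to alpha-amanitin, a toxin that blocks the cells' own RNA polymerase II, and both groups had 24 hours of expression and then 12 hours in 6 µg/ml of the toxin. Every group was kept in medium with charcoal-treated serum and none received the progestin R5020. All libraries come from 1 cell line, the protocols mention no sorting of transfected cells, and the labels leave unsaid whether paired libraries are separate cultures. The p-values therefore reflect the spread among these libraries alone, which may be technical.

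Kinesins are motor proteins that use ATP to move along, cross-link or shorten microtubules. The members that work in mitosis push spindle poles apart, position chromosomes, correct wrong attachments at centromeres, and build the midzone, the bundle of antiparallel microtubules at which the cell later divides. Transcripts of most of them are low in G1 and accumulate in G2 and mitosis. Their promoters are known for pairing CCAAT words, which the factor NF-Y can bind, with a CHR (cell cycle genes homology region), a word read by the MuvB core shared by the repressive DREAM complex and by activating complexes with B-MYB or FOXM1.

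The promoters are shown because this shared layout is a feature of the family that the choice by name did not use. In the window from 250 bases before to 50 bases after the RefSeq start, all 10 kinesins were matched by symbol, and the letters TTTGAA or TTCGAA (CHR, both strands) were found in 8 of 10, against 16.6% of the 27305 promoters in the same RefSeq table. CCAAT, on either strand, was found in 8 of 10 kinesins, against 35.7% of promoters, and both words in 7 of 10, against 6.58%. The words do not overlap each other in any kinesin window. The 140 bases before the start follow for 6 members, from RefSeq, build GRCh38.p14, each written 5′ to 3′ on the strand of the gene, with CHR and CCAAT words (or their reverse complements, TTCAAA and ATTGG) in capitals. KIF23, KIF4A and KIF22 hold both words, KIF20B holds CCAAT words here and CHR words past its start, KIF20A holds CCAAT words alone, and KIF2C holds neither.
KIF23: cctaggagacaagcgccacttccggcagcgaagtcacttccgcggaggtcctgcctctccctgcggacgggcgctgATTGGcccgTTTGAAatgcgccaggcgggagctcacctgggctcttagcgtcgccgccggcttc
KIF4A: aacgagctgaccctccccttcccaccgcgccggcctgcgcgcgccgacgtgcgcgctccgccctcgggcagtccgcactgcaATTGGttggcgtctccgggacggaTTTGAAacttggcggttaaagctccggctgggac
KIF22: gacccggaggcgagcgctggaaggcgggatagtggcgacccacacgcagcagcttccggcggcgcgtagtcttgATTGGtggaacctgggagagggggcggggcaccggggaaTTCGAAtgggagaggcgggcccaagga
KIF20B: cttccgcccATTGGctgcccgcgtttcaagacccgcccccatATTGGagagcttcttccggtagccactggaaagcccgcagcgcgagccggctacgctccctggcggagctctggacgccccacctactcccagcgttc
KIF20A: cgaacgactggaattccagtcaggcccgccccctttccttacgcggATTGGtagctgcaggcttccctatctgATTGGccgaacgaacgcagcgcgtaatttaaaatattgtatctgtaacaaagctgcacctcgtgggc
KIF2C: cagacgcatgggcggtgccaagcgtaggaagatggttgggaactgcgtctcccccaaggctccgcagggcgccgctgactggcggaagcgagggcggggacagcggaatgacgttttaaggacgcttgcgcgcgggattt
The KIF23 stretch is chr15:69414209-69414348 (+ strand), that of KIF4A chrX:70289964-70290103 (+ strand) and that of KIF22 chr16:29790611-29790750 (+ strand). The KIF20B stretch is chr10:89701450-89701589 (+ strand), that of KIF20A chr5:138178972-138179111 (+ strand) and that of KIF2C chr1:44739697-44739836 (+ strand). The first base of the CHR word lay 55 bases before the start in KIF23, 34 in KIF4A, 27 in KIF22, 28 in KIF11, 35 in KIF15 and 10 in KIF18A. In KIF14 it began at position 2 past the start, and in KIF20B at positions 25 and 31. KIF22 was the member with the TTCGAA form, which 1.45% of promoters held. KIF15 had a CHR word without CCAAT. A match is a description of letters, and its absence says only that these letters are not in this window.

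**Figure D1:**
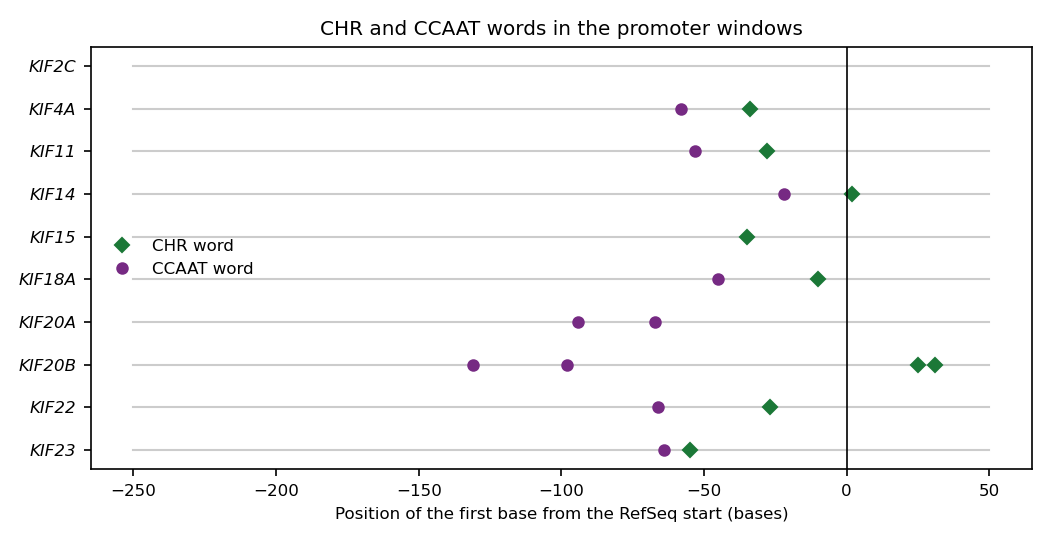
Positions of CHR words (diamonds) and CCAAT words (circles) in the promoter window of each kinesin, in bases from the RefSeq start (vertical line). Of the 10 windows, 7 hold both kinds of word, and that of KIF2C holds neither.

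Poly(A) libraries held 44318629 to 132764704 counted fragments and chromatin libraries 2720080 to 7040541, where 13 to 493 fragments were counted per kinesin. PADI2 had 1.83 and 1.88 CPM (counts per 1000000 fragments, TMM-scaled) in poly(A) RNA after siPADI2, against 24.0 and 22.6 CPM after siCtrl. In chromatin RNA it had 8.52 and 14.2 CPM after siPADI2, against 34.9 and 32.5 CPM after siCtrl. The libraries labelled R1810A had 3.13 and 2.35 CPM of PADI2, against 48.9 and 50.7 CPM in WT, although their labels name no siRNA. In the comparison of R1810A with WT, the polymerase form and the low PADI2 RNA therefore cannot be told apart. Whether these libraries carry their labels rightly, or also received a PADI2 siRNA, was not tested, and every R1810A value below is that of the libraries as labelled. All 9 luminal markers were at 66.7 CPM or more in poly(A) RNA. Their summed level was lower in the libraries labelled R1810A (6723 to 7535 CPM) than in WT (10038 to 10574 CPM), and likewise after siPADI2 (6079.6 to 6551 CPM) than after siCtrl (10148 to 11299.6 CPM). Among markers of other cell types, the 3 basal genes KRT5, KRT14 and TP63 summed to 0.307 to 1.60 CPM in poly(A) RNA, the 2 leukocyte genes PTPRC and CD3E to at most 0.0561 CPM, and VWF (endothelial) was at 0.109 CPM or less. Of the 3 fibroblast genes, COL3A1 and PDGFRB were under 1 CPM and COL1A1 was at 43.1 to 72.8 CPM. Not every luminal marker fell. After siPADI2, EPCAM rose to 268 and 259 CPM, against 161 and 182 CPM after siCtrl, and the other luminal markers were lower. In the libraries labelled R1810A, EPCAM was at 221 and 232 CPM, against 176 and 177 CPM in WT. There CDH1 was also higher, at 1771 and 1899 CPM, against 1403 and 1455 CPM in WT, and the other luminal markers were lower. The part of this shift in summed luminal level in the results below was not tested.

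After siPADI2 the poly(A) transcripts of most mitotic kinesins were lower and that of KIF20B was higher. Of the 10 kinesins, 9 were lower than after siCtrl and 1 was higher, by edgeR's quasi-likelihood test with the p-values of all 18720 genes adjusted by Benjamini-Hochberg and called under 0.05. Of all genes tested, 27.9% were called lower and 28.8% higher, 56.7% in all. The median log2 fold change of the 10 kinesins was −0.88, beside 0.0050 for all genes tested. All 10 passed the filter on low counts in this and the other comparisons. Where groups are said below not to overlap, this describes 2 libraries per group. The share of all genes without overlap was not computed for any comparison. The summed level of the 10 transcripts was 197 and 194 CPM after siPADI2, against 260 and 272 CPM after siCtrl. In bulk RNA, fewer cells in mitosis and less kinesin RNA per cell cannot be told apart.

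**Figure D2:**
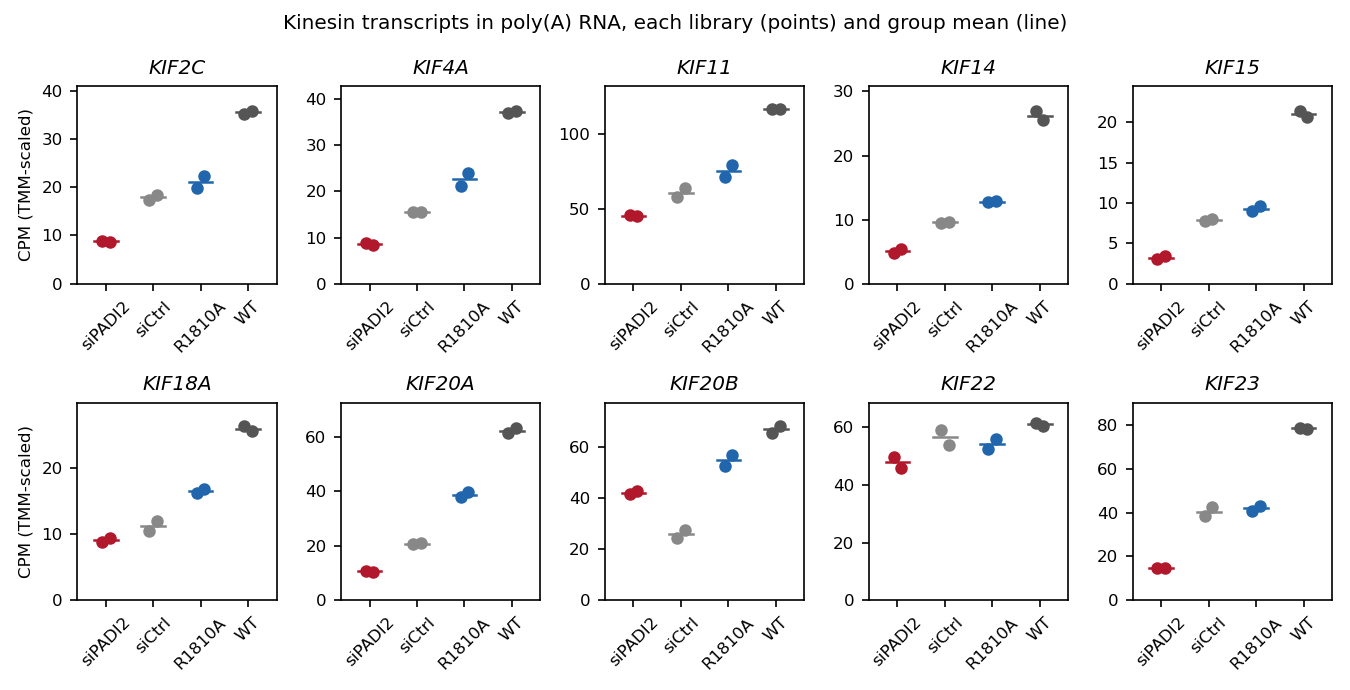
Level of each kinesin in poly(A) RNA (CPM, TMM-scaled within each comparison), with each library as a point and the group mean as a line, 2 libraries per group. The siPADI2 points lie below the siCtrl points for 9 kinesins and above them for KIF20B, and the R1810A points lie below the WT points for all 10.

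Both kinesins that hold spindle poles apart fell. KIF11 (chromosome 10, 94353043 to 94415150, hg19), also called Eg5, is a motor with heads at both ends that slides antiparallel microtubules. It had 45.9 and 44.9 CPM after siPADI2, against 57.5 and 63.6 CPM after siCtrl, with a log2 fold change of −0.42 ± 0.086 (SE, edgeR adjusted p = 7.40e-05). KIF15 (chromosome 3, 44803209 to 44914868) can take over the work of KIF11 when that motor is blocked. Its transcript had 3.06 and 3.39 CPM after siPADI2, against 7.80 and 8.0 CPM after siCtrl (log2 −1.29 ± 0.13, edgeR adjusted p = 4.65e-11). The groups did not overlap for either gene, and the siPADI2 libraries were the low ones.

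The 4 kinesins that act on chromosomes and on microtubule ends fell by different amounts. KIF2C (chromosome 1, 45205490 to 45233439), also called MCAK, shortens microtubules at centromeres and so frees wrong attachments. It had 8.93 and 8.64 CPM after siPADI2, against 17.4 and 18.4 CPM after siCtrl (log2 −1.03 ± 0.11, edgeR adjusted p = 9.90e-11). KIF4A (chromosome X, 69509879 to 69640682) is a chromokinesin that binds chromosome arms and, with PRC1, the midzone, and had 8.94 and 8.29 CPM after siPADI2, against 15.5 CPM in both siCtrl libraries (log2 −0.85 ± 0.11, edgeR adjusted p = 1.56e-08). For both genes every siPADI2 library was below every siCtrl library. KIF4B is a near-identical copy of KIF4A, and reads shared by the copies do not enter the deposited counts, so the level of KIF4A is uncertain to that extent. KIF18A (chromosome 11, 28042167 to 28129855) dampens the movement of chromosomes at the metaphase plate. Its levels were 8.85 and 9.42 CPM after siPADI2, against 10.5 and 12.0 CPM after siCtrl (log2 −0.31 ± 0.11, edgeR adjusted p = 0.0180). KIF22 (chromosome 16, 29802040 to 29816706), also called Kid, is a DNA-binding chromokinesin that pushes chromosome arms from the poles, and had 49.8 and 45.8 CPM after siPADI2, against 59.0 and 54.0 CPM after siCtrl (log2 −0.24 ± 0.087, edgeR adjusted p = 0.0181). Neither gene had overlapping groups, but these are the smallest differences of the 10. KIF18A was called in 8 of 13 alternative fits and KIF22 in 6 of 13, with the log2 value of KIF22 between −0.31 and −0.06.

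The 4 kinesins of the midzone and of cytokinesis included both the largest fall and the rise. KIF23 (chromosome 15, 69706585 to 69740764), also called MKLP1, forms the centralspindlin complex with RACGAP1. It had 14.6 and 14.9 CPM after siPADI2, against 38.3 and 42.4 CPM after siCtrl (log2 −1.46 ± 0.097, edgeR adjusted p = 4.58e-16), a fold of 2.74. KIF20A (chromosome 5, 137514408 to 137523404), also called MKLP2, brings the chromosomal passenger complex with Aurora B to the midzone. Its transcript had 10.9 and 10.5 CPM after siPADI2, against 20.5 and 21.1 CPM after siCtrl (log2 −0.96 ± 0.10, edgeR adjusted p = 2.45e-10). KIF14 (chromosome 1, 200520628 to 200589862), which binds PRC1 and citron kinase, had 4.76 and 5.38 CPM after siPADI2, against 9.52 and 9.64 CPM after siCtrl (log2 −0.92 ± 0.12, edgeR adjusted p = 2.86e-08). In these 3 genes the siPADI2 libraries were lower without overlap. KIF20B (chromosome 10, 91461367 to 91534700), also called MPP1, works late in cytokinesis. It had 41.4 and 42.6 CPM after siPADI2, against 24.2 and 27.6 CPM after siCtrl, a log2 fold change of 0.69 ± 0.094 (edgeR adjusted p = 4.88e-08). Both siPADI2 libraries were above both siCtrl libraries, and the value stayed above 0 in all 13 alternative fits, between 0.54 and 0.88, with the call lost against a fold of 1.5.

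Other listed genes of the mitotic apparatus were mostly lower in the same comparison, in which 27.9% of all genes were lower and 28.8% higher. The lists were chosen with earlier results of these data known. Their shares, here and in the comparisons below, are therefore descriptions and no independent test. Of the 11 midzone and cytokinesis partners, 10 were lower, with a median of −0.81, and the 2 lowest were AURKB (log2 −1.24), the kinase of the passenger complex, and CIT (log2 −1.06), citron kinase. Of the 13 kinetochore and checkpoint genes, 11 were lower and 1 higher, with SPC24 (log2 −2.03), a subunit of the NDC80 complex, at the low end and the checkpoint kinase TTK (log2 0.25) as the higher gene. All 8 cyclin and anaphase regulators were lower, from CCNA2 (log2 −1.08), cyclin A2, to CDK1 (log2 −0.42), the mitotic kinase. Of the 10 spindle assembly genes, 6 were lower and 2 higher, NUSAP1 (log2 −1.05) being the lowest and BORA (log2 0.69), an activator of Aurora A and PLK1, the highest. Of 5 other mitotic kinesins tested, 3 were lower and 2 higher. KIF18B, which shortens astral microtubules with KIF2C, had 7.0 ± 0.413 CPM after siPADI2, against 20.6 ± 2.76 CPM after siCtrl (SD, n = 2 each, log2 −1.55), KIF4B had 0.0241 CPM after siPADI2 and 0.128 CPM after siCtrl, and the higher genes were CENPE (log2 0.36), the kinetochore motor, and KIF2A (log2 0.27), which shortens microtubules at spindle poles.

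Of 22 transport and other kinesins tested, 5 were lower and 13 higher, with a median of 0.49, beside 27.9% of all genes lower, which 5 of 22 is near, and 28.8% higher. The highest were KIF7 (log2 1.33), a regulator of Hedgehog signalling in cilia, and KIF3C (log2 1.17), a subunit of a kinesin-2 motor, and the lowest were KIF12 (log2 −1.94) and KIF26A (log2 −1.37), both under 2 CPM. Among 14 regulators that act on mitotic promoters, 6 were lower and 6 higher, with a median of 0.02. MYBL2, which encodes B-MYB, had 8.44 ± 0.102 CPM after siPADI2, against 38.7 ± 1.96 CPM after siCtrl (log2 −2.19), and FOXM1 had 16.0 ± 0.158 CPM after siPADI2, against 30.8 ± 0.613 CPM after siCtrl (log2 −0.94). RBL2, which encodes the p130 subunit of DREAM, had 127 ± 1.78 CPM after siPADI2, against 65.6 ± 2.62 CPM after siCtrl (log2 0.95), and LIN37, a MuvB subunit, had a log2 fold change of 0.73.

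The second poly(A) comparison asks how the kinesins stand when the resistant polymerase is labelled R1810A in place of WT. All 10 kinesins were lower in the libraries labelled R1810A than in WT, against 24.3% of the 19202 genes tested that were lower and 22.6% that were higher (46.9% called in all). The median log2 fold change of the kinesins was −0.70, beside −0.0209 for all genes tested. Their summed level was 333 and 361 CPM in the libraries labelled R1810A, against 530 and 531 CPM in WT. No kinesin had overlapping groups, a description of 2 libraries per group for which the share of all genes was not computed.

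For the spindle motors, KIF11 had 71.2 and 79.0 CPM in the libraries labelled R1810A, against 116 CPM in both WT libraries (log2 −0.63 ± 0.064, edgeR adjusted p = 3.46e-06). KIF15 had 9.02 and 9.60 CPM in the libraries labelled R1810A, against 21.3 and 20.6 CPM in WT, the lowest fold change of the 10 (log2 −1.17 ± 0.074, edgeR adjusted p = 5.20e-08). Both motors were thus low in each R1810A library. Among the chromosome kinesins, KIF2C had 19.8 and 22.4 CPM in the libraries labelled R1810A, against 35.2 and 35.9 CPM in WT (log2 −0.75 ± 0.072). KIF4A had 21.3 and 24.1 CPM in the libraries labelled R1810A, against 37.0 and 37.5 CPM in WT (log2 −0.72 ± 0.071), and KIF18A had 16.3 and 16.9 CPM in the libraries labelled R1810A, against 26.4 and 25.7 CPM in WT (log2 −0.65 ± 0.067). The 3 falls were alike in size, from 1.57-fold to 1.68-fold, with edgeR adjusted p-values of 4.04e-06 or less. KIF22 had 52.4 and 56.1 CPM in the libraries labelled R1810A, against 61.6 and 60.5 CPM in WT (log2 −0.17 ± 0.060, edgeR adjusted p = 0.0313), and was called in 4 of 13 alternative fits.

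Of the midzone kinesins, KIF23 had 40.8 and 43.1 CPM in the libraries labelled R1810A, against 78.8 and 78.1 CPM in WT (log2 −0.90 ± 0.059, edgeR adjusted p = 6.52e-08). KIF14 had 12.7 and 12.8 CPM in the libraries labelled R1810A, against 26.9 and 25.5 CPM in WT (log2 −1.04 ± 0.069, edgeR adjusted p = 8.14e-08). KIF20A had 37.8 and 39.9 CPM in the libraries labelled R1810A, against 61.3 and 63.4 CPM in WT (log2 −0.68 ± 0.060, edgeR adjusted p = 9.55e-07). These 3 motors fell with all R1810A libraries below all WT libraries. KIF20B, higher after siPADI2, was lower here, with 52.3 and 56.8 CPM in the libraries labelled R1810A, against 65.4 and 68.0 CPM in WT (log2 −0.29 ± 0.062, edgeR adjusted p = 0.00182).

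The other mitotic lists were mostly lower here too, beside 24.3% of all genes lower and 22.6% higher. All 11 midzone and cytokinesis partners were lower (median −0.78), as were all 8 cyclin and anaphase regulators (median −0.63) and 12 of 13 kinetochore and checkpoint genes (median −0.65). Of the 10 spindle assembly genes, 7 were lower and 1, NUMA1 (log2 0.34), a protein that focuses spindle poles, was higher. Of 5 other mitotic kinesins tested, 3 were lower, KIF18B (log2 −1.11), KIFC1 (log2 −0.70) and CENPE (log2 −0.40). Of 23 transport and other kinesins tested, 4 were lower and 11 higher (median 0.33), with KIF6 (log2 1.25) and KIF3C (log2 1.18) highest. Of the 14 promoter regulators, 6 were lower and 3 higher, and MYBL2 had 26.0 ± 1.91 CPM in the libraries labelled R1810A, against 99.7 ± 1.16 CPM in WT (SD, n = 2 each, log2 −1.94).

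The difference between the siPADI2 effect and the R1810A effect was tested as an interaction in a joint fit of the 8 poly(A) libraries, which share no control libraries. It was called for 3 of 10 kinesins, against 26.1% of the 19884 genes tested. KIF20B had a difference of log2 fold changes of 0.96 ± 0.11 (SE, edgeR adjusted p = 1.63e-05), its effect being positive after siPADI2 and negative for R1810A. KIF23 had a difference of −0.58 ± 0.097 (edgeR adjusted p = 0.000555), the siPADI2 fall being the larger. Both differences were called in 13 of 13 alternative fits. KIF20A had a difference of −0.30 ± 0.097 (edgeR adjusted p = 0.0321) that was called in 5 of 13 alternative fits. For the other 7 kinesins the difference lay between −0.31 and 0.31 and did not pass the threshold, which does not show that the effects are alike.

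**Figure D3:**
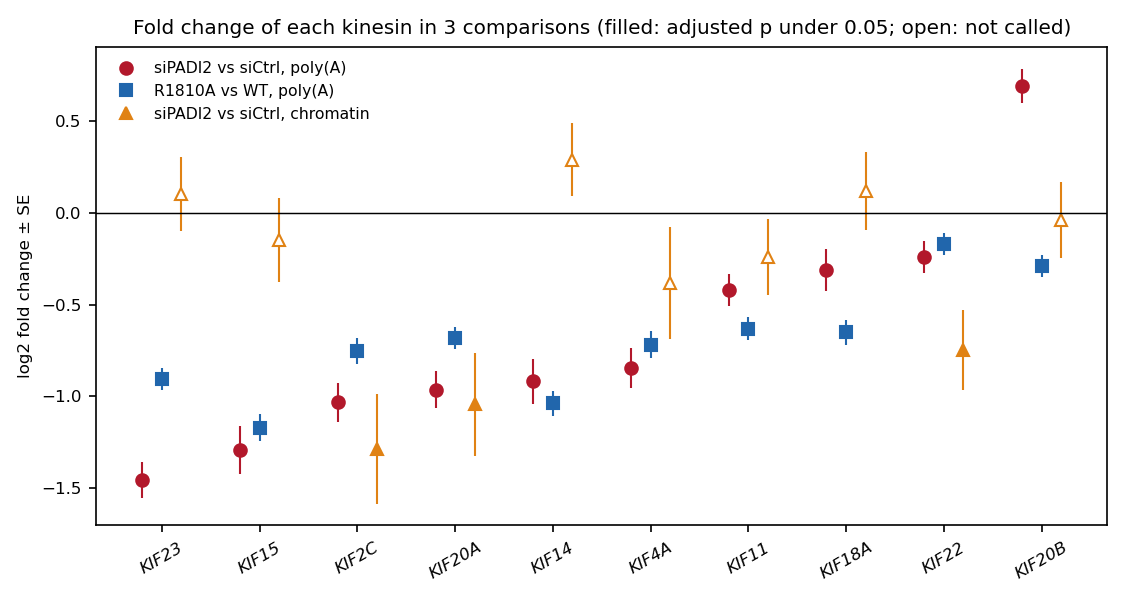
Log2 fold change of each kinesin (vertical axis, ± SE) in the 3 comparisons, in the order of the siPADI2 effect in poly(A) RNA, with filled symbols for an edgeR adjusted p under 0.05. KIF20B is the kinesin with opposite called directions in the poly(A) comparisons, at 0.69 and −0.29, and in chromatin RNA 3 of 10 symbols are filled.

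Per kb of exon, the order of levels in poly(A) RNA differed between the groups, also at its ends. After siPADI2 it ran from KIF22 at 11.1 ± 0.649 CPM per kb to KIF15 at 0.610 ± 0.0444 CPM per kb, and after siCtrl from KIF22 at 13.1 ± 0.814 CPM per kb to KIF14 at 1.32 ± 0.0110 CPM per kb (SD, n = 2). In the libraries labelled R1810A it ran from KIF11 at 15.5 ± 1.12 CPM per kb to KIF14 at 1.75 ± 0.0139 CPM per kb, and in WT from KIF11 at 23.9 ± 0.00820 CPM per kb to KIF14 at 3.6 ± 0.142 CPM per kb. Neighbours in the order whose libraries overlapped were KIF22 and KIF11 after siCtrl, and KIF15 and KIF14 in the libraries labelled R1810A. KIF20B stood the third after siPADI2 at 5.90 ± 0.119 CPM per kb and the sixth after siCtrl at 3.63 ± 0.343 CPM per kb. KIF23 stood the sixth after siPADI2 at 2.31 ± 0.0399 CPM per kb and the third after siCtrl at 6.33 ± 0.453 CPM per kb. Between the experiments, WT had 1.07 (KIF22) to 2.97 (KIF20A) times the siCtrl level on a joint TMM scale, beside a median of 0.983 over 12528 genes. The experiments differ in siRNA, polymerase construct and toxin, which cannot be told apart here.

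The last comparison reads the same knockdown in RNA bound to chromatin. In this fraction 3 of 10 kinesins were lower after siPADI2 than after siCtrl and 0 were higher. Of all 33879 genes tested, 20.1% were lower and 12.2% higher (32.4% called in all). The share of kinesins called lower is near that background. That background is not matched for GC content, which fold changes followed, as described below. At an unadjusted p under 0.05, edgeR and DESeq2 each had 3 kinesins lower and 0 higher. The share of all genes at that threshold was not computed. With the adjusted p, DESeq2 called 1 kinesin and 3252 of 33879 genes lower. The median log2 fold change of the kinesins was −0.19, beside 0.0278 for all genes tested. With the GC correction described below it was −0.70, beside −0.069 for all genes tested. Their summed level was 336 and 303 CPM after siPADI2, against 384 and 332 CPM after siCtrl. MALAT1 and NEAT1, long RNAs held at chromatin, summed to 9959 to 14169.9 CPM in chromatin RNA after siPADI2 and 6905 to 10389 CPM after siCtrl, and to 394 to 504 CPM in poly(A) RNA after siPADI2 and 789 to 802 CPM after siCtrl.

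**Figure D4:**
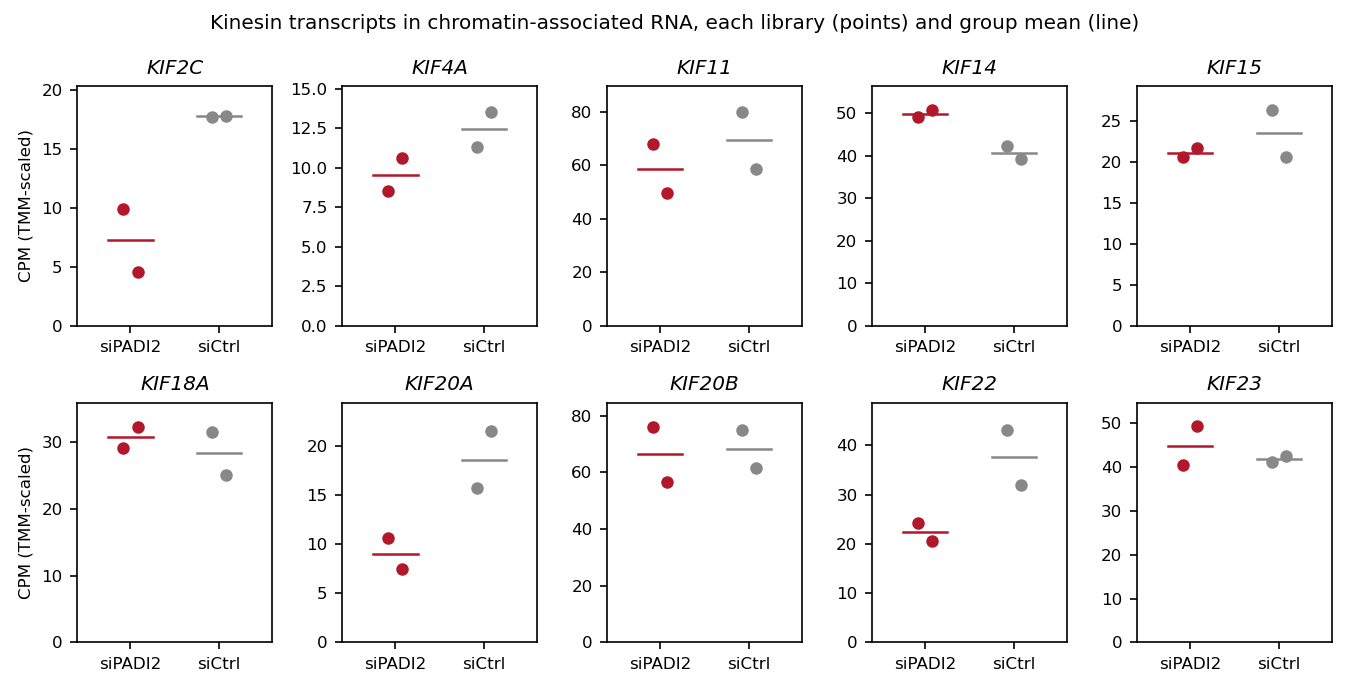
Level of each kinesin in chromatin-associated RNA (CPM, TMM-scaled), with each library as a point and the group mean as a line, 2 libraries per group. KIF2C, KIF20A and KIF22, the called genes, have siPADI2 points below siCtrl points, and KIF4A and KIF14 are also apart without being called.

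The called genes were KIF2C, KIF20A and KIF22. KIF2C had 9.94 and 4.61 CPM after siPADI2, from 28 and 13 fragments, against 17.7 and 17.8 CPM after siCtrl, from 109 and 121 fragments (log2 −1.28 ± 0.30, edgeR adjusted p = 0.000223). KIF20A had 10.6 and 7.44 CPM after siPADI2, against 15.7 and 21.5 CPM after siCtrl (log2 −1.04 ± 0.28, edgeR adjusted p = 0.00168). KIF22 had 24.1 and 20.5 CPM after siPADI2, against 43.1 and 31.9 CPM after siCtrl (log2 −0.75 ± 0.22, edgeR adjusted p = 0.00360). The groups did not overlap for these 3 genes, again a description of 2 libraries per group. KIF2C was called in 9 of 10 alternative fits, KIF20A in 6 and KIF22 in 4. In fits without 1 library, KIF2C ran from −1.95 to −0.83, KIF20A from −1.33 to −0.80 and KIF22 from −0.99 to −0.52 (log2). With DESeq2 1 kinesin was called, KIF2C.

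The other 7 kinesins did not pass the test. KIF23, with the largest fall in poly(A) RNA, had 40.5 and 49.2 CPM after siPADI2, against 41.0 and 42.5 CPM after siCtrl (log2 0.10 ± 0.20, edgeR adjusted p = 0.731). KIF20B, which rose in poly(A) RNA, had 76.0 and 56.7 CPM after siPADI2, against 74.7 and 61.5 CPM after siCtrl (log2 −0.04 ± 0.21, edgeR adjusted p = 0.907). In both genes the groups overlapped. KIF14 had 49.0 and 50.7 CPM after siPADI2, against 42.3 and 39.2 CPM after siCtrl, without overlap (log2 0.29 ± 0.20, edgeR adjusted p = 0.265). KIF4A had 8.52 and 10.6 CPM after siPADI2, against 11.3 and 13.5 CPM after siCtrl, also without overlap (log2 −0.38 ± 0.31, edgeR adjusted p = 0.348). The groups of KIF11 (log2 −0.24), KIF15 (log2 −0.15) and KIF18A (log2 0.12) overlapped. With GC content corrected for, as described below, the values of KIF14, KIF18A and KIF23 turned negative.

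Several of these levels are near those of genes that poly(A) RNA shows as silent. Over 4965 protein-coding genes under 0.1 CPM in all 8 poly(A) libraries, the median chromatin level was 1.97 CPM per kb after siPADI2 and 2.46 CPM per kb after siCtrl. Of those genes, 3653 were tested in this comparison, and 28.9% of the 3653 were called lower. Their median log2 fold change was −0.23, beside −0.19 for the kinesins, in gene sets not matched for GC content. With the GC correction described below the kinesin median was −0.70, and that of the silent genes was not computed. KIF2C had 1.99 CPM per kb after siPADI2, above 50.3% of those silent genes, and 4.85 CPM per kb after siCtrl, above 80.5%. KIF4A had 2.03 CPM per kb after siPADI2, above 51.6%, and 2.64 CPM per kb after siCtrl, above 53.2%. KIF20A had 2.28 CPM per kb after siPADI2, above 57.8%, and 4.70 CPM per kb after siCtrl, above 78.9%. KIF11 and KIF20B stood clear of the silent genes, above 97.7% or more in both groups. KIF14, KIF18A, KIF22 and KIF23 were above 85.9% (KIF14 after siCtrl) to 97.1% (KIF23 after siPADI2) of them. KIF15 was above 84.0% after siPADI2 and 76.4% after siCtrl. All 9 matched markers of other cell types were above 1 CPM in chromatin RNA, at 5.32 to 70.9 CPM after siPADI2 and 5.67 to 99.1 CPM after siCtrl.

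Fold changes in chromatin RNA followed GC content over all genes. The median log2 fold change was 0.51 for genes under 40% GC, of which 0.707% were called lower, and −0.66 for genes at 50% or more, of which 43.9% were called lower. KIF20B (34.1% GC), KIF18A (37.1%), KIF14 (37.6%) and KIF11 (38.3%) fall in the lowest band, and KIF22 (57.5%) in the highest. KIF15 (40.4%) and KIF23 (41.8%) fall between 40% and 45%, where 1.64% of genes were called lower. The called genes KIF2C (49.8%) and KIF20A (49.2%) fall between 45% and 50%, as does KIF4A (46.7%). In that band 4.74% of genes were called lower. Taking each library's GC trend out moved KIF22 to −0.04 ± 0.21 (edgeR adjusted p = 0.911), which ends its call. The same correction moved KIF11 to −0.83 ± 0.19 (edgeR adjusted p = 0.00255), KIF20B to −0.72 ± 0.19 (edgeR adjusted p = 0.00688) and KIF15 to −0.69 ± 0.20 (edgeR adjusted p = 0.0168), which were then called lower. KIF2C at −1.34 ± 0.29 (edgeR adjusted p = 0.00151) and KIF20A at −1.16 ± 0.27 (edgeR adjusted p = 0.00266) were called lower with and without it, and 5 kinesins were lower in all. Of the 33879 genes tested, 3741 were called lower and 1995 higher with the correction, beside 6822 lower and 4140 higher without it. The correction also turned the direction of 3 kinesins that were called in neither fit, KIF14 to −0.32 ± 0.17 (edgeR adjusted p = 0.199), KIF18A to −0.50 ± 0.19 (edgeR adjusted p = 0.0556) and KIF23 to −0.42 ± 0.18 (edgeR adjusted p = 0.0996). In poly(A) RNA the same bands had medians from 0.14 to −0.07 after siPADI2.

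**Figure D5:**
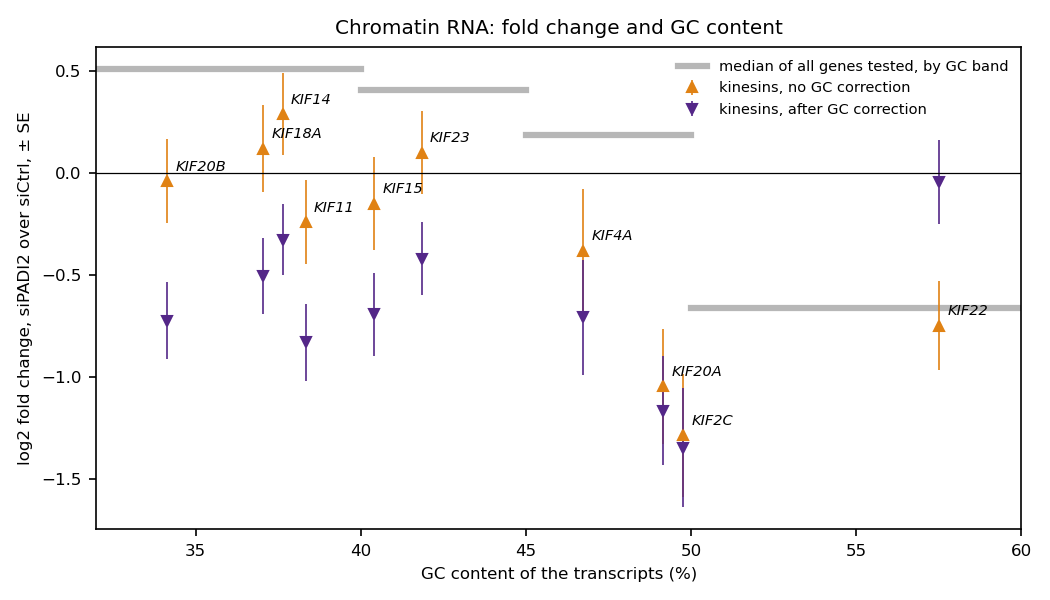
Log2 fold change in chromatin RNA, siPADI2 over siCtrl (± SE), against the GC content of the gene's transcripts, for the 10 kinesins without (upward triangles) and with (downward triangles) the GC correction. Grey bars are medians of all genes tested in 4 GC bands, the outer bands being open-ended, and run from 0.51 under 40% to −0.66 at 50% or more.

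The wider lists in chromatin RNA stand beside 20.1% of all genes called lower and 12.2% called higher. No list was tested against that background, and a few genes move the share of such short lists. In them, 5 of 11 midzone and cytokinesis partners were lower, with INCENP (log2 −1.36), the scaffold of the passenger complex, lowest. Of 13 kinetochore and checkpoint genes, SPC25 (log2 0.82) was the 1 called, and was higher. Of 8 cyclin and anaphase regulators 3 were lower, CCNA2 (log2 −1.01), CCNB1 (log2 −0.67) and CDK1 (log2 −0.58). Of 10 spindle assembly genes 4 were lower, TACC3 (log2 −1.62) the most. Of 6 other mitotic kinesins 2 were lower, KIF18B (log2 −0.69) and KIFC1 (log2 −0.62), and of 27 transport and other kinesins 13 were lower and 1, KIF6 (log2 0.57), was higher. Of 14 promoter regulators 4 were lower, among them MYBL2 with 4.79 ± 1.76 CPM after siPADI2, against 21.6 ± 6.27 CPM after siCtrl (log2 −2.17). The part of GC content and of low counts in these counts was not tested.

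The difference between the siPADI2 effect in chromatin and that in poly(A) RNA was called for 1 of 10 kinesins, against 8.05% of the 44615 genes tested. KIF23 had a difference of log2 fold changes of 1.37 ± 0.38 (edgeR adjusted p = 0.00643), the fold change being 0.10 in chromatin RNA and −1.46 in poly(A) RNA. The median difference over all genes was −0.16. It moved by 0.29 with DESeq2 size factors, by 0.54 with DESeq2 and by −0.28 without siCtrl poly(A) replicate 2, so this contrast depends on how the RNA kinds are scaled. The difference for KIF23 was positive in all 13 alternative fits, from 0.86 to 1.74, and was called in 10 of them. The call was lost without either siPADI2 poly(A) library and with the GC correction, a fit added after the data were seen, which put KIF23 at 0.86 (edgeR adjusted p = 0.160). With that correction KIF20B was the 1 kinesin called, at −1.63 (edgeR adjusted p = 0.000445), against −0.92 (edgeR adjusted p = 0.117) without it. In siCtrl cells, chromatin over poly(A) level was 4.25 for KIF14, 2.97 for KIF15, 2.63 for KIF20B and 2.51 for KIF18A, and ran from 1.14 for KIF11 to 0.664 for KIF22 in the other 6, beside a median of 1.39 over 17433 genes. The library kits differ between the RNA kinds, and kit and compartment cannot be told apart.

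Over the 3 log2 fold changes, the 5 genes nearest to the kinesin medians by Euclidean distance, among 17114 genes tested in all 3 comparisons, were CRK (distance 0.037), an adaptor protein, ARPC5 (0.076), an Arp2/3 subunit, GATD1 (0.078), AC025181.2 (0.081) and FANCI (0.087), a Fanconi repair protein. Of the kinesins, KIF4A was nearest to the medians (0.19) and KIF20B farthest (1.64).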

How the data were processed

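Poly(A) RNA (TruSeq Stranded mRNA kit) and chromatin-associated RNA (total RNA kit of the same make, stranded, with Ribo-Zero) were sequenced, per the labels' protocols. Each library has its own deposited table of fragment counts by gene, without normalization. The submitters' processing notes name Trimmomatic, STAR and featureCounts. By the authors' commands, per the file headers, counting used featureCounts 1.5.1 for poly(A) and 1.4.6-p2 for chromatin RNA, with strand, on GENCODE 19 genes (hg19), and reads mapping to several places were left out, the tool's default. Introns were not counted, since exons are the tool's default feature. Symbols and transcript GC content came from GENCODE 29 by stable identifier (52338 of 57820 genes matched). Every column of the tables belongs to a library of the series. Opposite-strand genes share at most 4.78% of a kinesin's exon bases.

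Each comparison was fitted on its 4 libraries with edgeR 4.0.16 (TMM, filterByExpr, robust quasi-likelihood F test; R 4.3.3), and p-values were adjusted by Benjamini-Hochberg over all genes of the fit, with a threshold of 0.05. SE is the size of the log2 fold change over the square root of F. Differences between effects were interaction contrasts in joint fits of 8 libraries. The fits were run on simulated counts in which some well-counted genes were changed by a fixed fold. That run does not cover smaller effects, low chromatin counts or the GC trend, and its outcome is not given here. Alternatives were other scalings, no filter, DESeq2 1.42.0, a fold of 1.5, GC correction, leave-one-out, a joint fit and a replicate block. Between libraries of a group the chi-square per degree of freedom was 3.55 to 91.7, so no library repeats the counts of another. This spread does not show whether the libraries come from separate preparations or cultures. Counting precision follows the total counts given above, and chromatin values are the least precise. The members and lists were chosen with earlier results of these data known. All 10 kinesins are named in each comparison, and of each list the 2 lowest and 2 highest log2 fold changes among called genes could be named. PECAM1, an endothelial marker, was not used here.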

Additional observations from a re-analysis of the deposited data

Results flagged for a closer look

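The siPADI2 effect differed from the R1810A effect in poly(A) RNA, by the interaction test of edgeR, for 3 of 10 kinesins, near the 26.1% of all genes called in that test. The differences of log2 fold changes were 0.96 for KIF20B, −0.58 for KIF23 and −0.30 for KIF20A, the last being called in 5 of 13 alternative fits. Both effects compare cells with low PADI2 RNA with cells that have more, and the 2 experiments differ in construct and toxin. The siPADI2 effect also differed between chromatin and poly(A) RNA for KIF23, by 1.37 on the log2 scale, a call lost with the GC correction (0.86, edgeR adjusted p = 0.160). The cause was not tested for any of them.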

How the results depend on the processing

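Tested against a fold of 1.5, 6 kinesins were lower and 0 higher after siPADI2 in poly(A) RNA (1896 of 18720 genes lower, 3532 called in all). For R1810A 4 were lower (1040 of 19202 genes lower, 2104 called in all). In chromatin RNA 1 kinesin was lower (3530 of 33879 genes lower, 4558 called in all). In chromatin RNA DESeq2 called 1 kinesin and 4110 genes, the GC correction 5 kinesins and 5736 genes, and fits without 1 library 0 to 3 kinesins and 4846 to 7988 genes. Without siPADI2 chromatin replicate 2 there were 0 kinesins, and without siCtrl chromatin replicate 5 4846 genes. With the GC correction KIF14 was at −0.32, KIF18A at −0.50 and KIF23 at −0.42, and with total counts KIF20B was at 0.078. Without 1 library KIF15 ran from −0.35 to 0.032, KIF18A from −0.075 to 0.29, KIF20B from −0.27 to 0.16, KIF23 from −0.041 to 0.23 and the kinesin median from −0.32 to 0.014. For the siPADI2 effect minus the R1810A effect, the replicate block called 5 kinesins and 7764 of 19884 genes. The main fit called 3 kinesins and 5196 genes, and with total counts KIF22 was at 0.051. For the chromatin effect minus the poly(A) effect, the main fit called 1 kinesin and 3592 of 44615 genes. DESeq2 size factors called 4 kinesins (6148 genes), total counts 4 (5756 genes) and DESeq2 3 (5251 genes), so calls over all genes rose too. The kinesins called also changed in fits without 1 library. In the same contrast KIF11 was at 0.35 with DESeq2 size factors, 0.12 with total counts and 0.35 with DESeq2. KIF20A was at 0.10 with DESeq2 size factors and 0.10 with DESeq2. With the GC correction, added after seeing the data, KIF4A was at −0.030, KIF18A at −0.41 and KIF22 at 0.030, and KIF20B was called in place of KIF23. Without 1 library KIF2C ran from −0.93 to 0.23, KIF11 from −0.37 to 0.44, KIF18A from −0.14 to 0.63 and KIF20A from −0.57 to 0.19. Total counts moved the all-gene median by 0.18 after siPADI2 in poly(A) RNA, with 67.0% of calls higher in place of 50.8%, and by 0.11 in chromatin RNA. For the siPADI2 effect minus the R1810A effect 68.0% of calls were positive with total counts in place of 45.1%, and for chromatin minus poly(A) 48.8% with DESeq2 size factors in place of 21.2%. Same-numbered libraries deviated with r = 0.265 (siPADI2 and siCtrl) and 0.806 (R1810A and WT), over genes. With 2 pairs the numbers are not taken as pairs. The replicate block called 9 kinesins lower and 1 higher (11513 genes) after siPADI2 and 10 lower (12582 genes) for R1810A. No paired analysis was possible for chromatin RNA because its groups share fewer than 2 replicate numbers. The causes were not tested.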
